A study of Mus musculus with 6 samples.

Results

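The enzymes that build long-chain fatty acids from acetyl-CoA and then elongate and desaturate them were examined in C2C12 cells, an immortalised mouse myoblast line. The set was fixed by name as Acly, Acss2, Me1, Acaca, Fasn, Elovl6, Scd1, Scd2, Fads1 and Fads2, which are 10 of the 24028 genes in the count table. All 10 were found and all 10 had enough counts to be tested. Every culture came from 1 clonal line selected with puromycin that carries MMH, a codon-altered transgene under doxycycline control. MMH fuses the DNA-binding homeodomain part of mouse Dux to the carboxy-terminal part of human DUX4. Of 6 cultures, 3 were left without doxycycline (uninduced) and 3 received 2 µg/ml (induced). The labels disagree on the duration of treatment, with 18 h in the series text and 36 h in the sample protocol. Cells given doxycycline but lacking MMH are not analysed here, so the drug and the transgene cannot be told apart, and a single clone cannot stand for other integrations.

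Cytosolic fatty acid synthesis starts from acetyl-CoA, which ATP citrate lyase (Acly) makes from citrate and Acss2 makes from acetate. Acetyl-CoA carboxylase (Acaca) converts it to malonyl-CoA, and fatty acid synthase (Fasn) joins these units into palmitate with NADPH as the reductant. Elovl6 lengthens palmitate, Scd enzymes insert the double bond of monounsaturated fatty acids, and Fads enzymes desaturate polyunsaturated ones. Transcription of these genes is classically driven by the sterol-sensing factors SREBP, which act together with NF-Y and Sp1, and in dividing cells much of the product goes into membranes.

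The 6 libraries held 21.5 to 24.5 M counts. Scaling factors from TMM (a trimmed mean of log ratios between libraries) averaged 1.40 in uninduced and 0.716 in induced libraries. Levels in CPM (a gene's counts relative to the library's size) below are on TMM-scaled library sizes unless stated otherwise. When scaled by library size alone, the median log2 fold change of all tested genes was -0.97 in place of -0.01. A fold change here is thus read against the bulk of the genes, and no RNA standard was named that would give amounts per cell. The endogenous Dux gene had 1, 3 and 0 counts without doxycycline and 252, 216 and 220 counts with it. The transgene's codons were altered, so these counts need not come from it. In bulk RNA, fewer cells with a transcript and less of it per cell cannot be told apart.

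All 10 transcripts were lower in induced cells, by 1.20-fold for Me1 to 3.33-fold for Fads1. Each passed edgeR's quasi-likelihood test at an adjusted p of 0.05, and none was higher. The same count of 10 lower and 0 higher was obtained with DESeq2 and with limma-voom. Of the 12969 tested genes 82.5% passed, 41.2% lower and 41.3% higher, so a call by itself is common. All 10 were also called lower when scaled by library size alone, as were 76.7% of tested genes. The uninduced and induced libraries did not overlap for any of the 10, in the direction of lower CPM, against 41.7% of all tested genes. The set's median log2 fold change was -0.83, beside -0.01 for all tested genes. A fall of at least 2-fold was seen for 4 of the 10, namely Scd1, Elovl6, Fads1 and Fads2, whereas 12.7% of tested genes were called and fell that far. Summed over the 10 genes, CPM came to 2690.3, 2604 and 2532 without doxycycline and to 1426, 1382 and 1394 with it, and the groups did not overlap. As a share of raw library counts the set took 0.364% ± 0.0110 of uninduced and 0.1002% ± 0.00172 of induced libraries (SD, n = 3 each). That fall was 3.63-fold, beside 1.86-fold for the summed CPM, and raw shares carry the median shift of -0.97 over all tested genes. Scd2 alone held 54.2% ± 0.757 of the set's counts in uninduced and 52.1% ± 1.23 in induced libraries (SD, n = 3), so the sums mostly follow it.

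**Figure D1:**
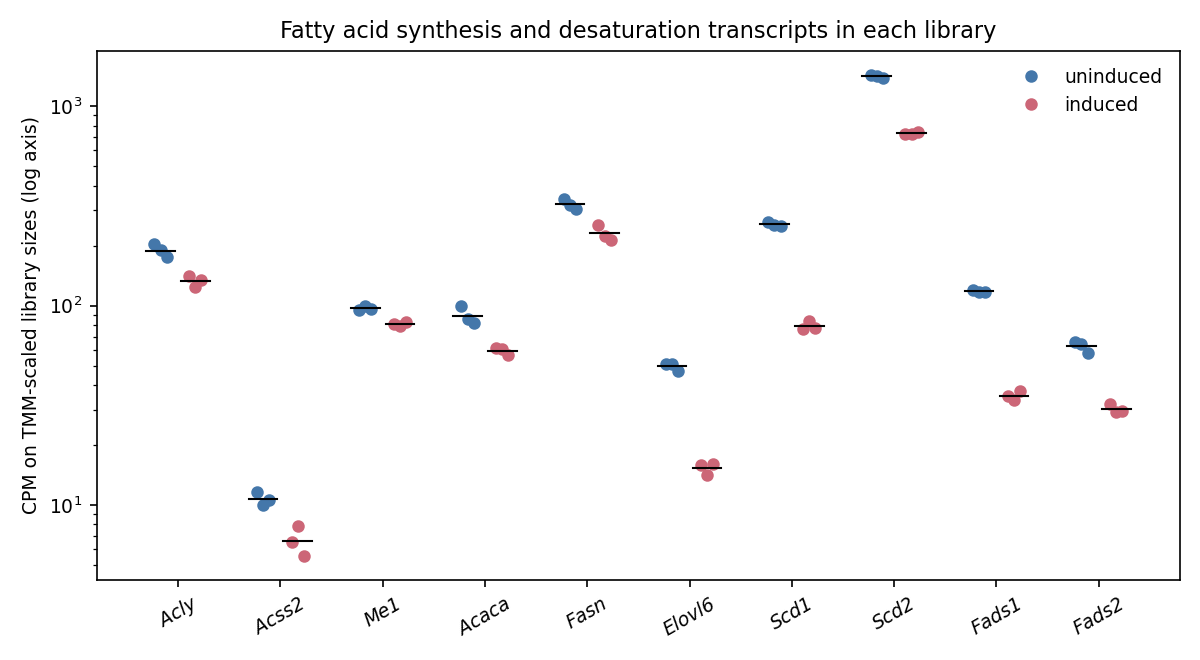
Expression of the 10 enzyme transcripts in each of the 6 libraries, as CPM on TMM-scaled library sizes on a log axis, with each dot a library and each black bar the mean of 3. For every gene the 3 induced libraries lie below the 3 uninduced ones, from Acss2 near 10.7 CPM to Scd2 near 1414 CPM when uninduced.

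Among the enzymes that supply substrate, Acly stood at 203, 189 and 174 CPM without doxycycline and 141, 124 and 134 CPM with it. The groups were separate and the log2 fold change was -0.50 ± 0.05 (SE, edgeR adjusted p = 5.7e-08). Acss2, the least counted of the set, had 387, 309 and 325 raw counts in uninduced libraries and 114, 121 and 97 in induced ones. Its CPM fell from 10.7 ± 0.797 to 6.63 ± 1.14 (SD, n = 3), for a log2 difference of -0.70 (SE 0.12, adjusted p = 6.0e-06 by edgeR). Exons of Acss2 overlap exons of Gss, Ggt7 and Acss2os on the opposite strand over 927 of 10163 bases in GENCODE M21, and the counting strand is not given in the sources used here. Gss and Ggt7 reads can therefore be part of the Acss2 count.

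Me1, the cytosolic malic enzyme that yields NADPH, was the least changed. It had 94.8, 99.7 and 96.4 CPM without doxycycline and 81.2, 78.9 and 83.2 CPM with it. The log2 difference of -0.26 (SE 0.05, adjusted p = 1.5e-05 by edgeR) left it at 83.6% of its uninduced level. Of the 50-base stretches of Me1 transcripts, 28.3% also occur in transcripts of other genes, chiefly Gm7049 and Gm48795, which have no row of their own in the table. Me1 was the smallest fall under each of the 16 alternatives that give a fold change.

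The carboxylase and the synthase fell to a similar extent as Acly. Acaca, which catalyses the committed step, was at 100.1, 85.6 and 81.9 CPM without doxycycline and at 61.0, 60.8 and 56.8 CPM with it. Uninduced replicate 1 was the high library, and even the lowest uninduced value stayed above all induced ones. The log2 fold change was -0.58 ± 0.07 (SE, edgeR adjusted p = 1.7e-07). Stretches of 50 bases shared with other transcripts made up 30.4% of those of Acaca, nearly all with Gm5182, which also has no row. Fasn, on chromosome 11 at 120805958 to 120825166 of GRCm38.p6, had 344, 321 and 305 CPM without doxycycline and 253, 224 and 213 CPM with it. Its log2 fold change was -0.49 ± 0.06 (SE, edgeR adjusted p = 3.1e-07), which left 71.2% of the uninduced level, and no 50-base stretch of it occurred in another gene's transcripts. For Me1, Fasn, Acly, Acaca and Acss2 the fall was not shown to exceed 1.5-fold by edgeR's glmTreat test (adjusted p of 0.12 for Acss2, 0.48 for Acaca and 1 for the other three). The remaining 5 passed that test, as did 19.4% of tested genes in the downward direction.

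The promoter windows of RefSeq (GRCm38.p6, 250 bases before to 50 after a start site) were searched on both strands for letters linked to their regulators. Windows were found for 7 of the 10 genes, 8 windows in all. Scd1, Scd2 and Fads1 had no window and were not searched. The NF-Y letters CCAAT occurred in 4 of the 8 windows (Acly, Acss2, Fasn and 1 of 2 for Me1), compared with 37.4% of all 32851 windows. The Sp1 letters GGGCGG also occurred in 4 of 8 (Acly, Acss2, Fads2 and the other Me1 window), compared with 35.7% of all windows. The sterol regulatory letters TCACNCCAC, the E-box CACGTG and the Dux-family motif were not found in the 8 windows, and they occur in 1.24%, 7.15% and 0.207% of all windows. A match is a description of letters and no match says only that they are not in these windows. The Fasn stretch just upstream of the start site is shown because it held the most CCAAT matches of the set. It had 3, of which 2 overlap as CCAATTGG, beginning 90, 62 and 59 bases upstream. RefSeq's gene span for Fasn reaches further upstream than this start site. The Acss2 match begins 73 bases upstream. That of Me1 begins 208 bases upstream, whereas that of Acly begins 37 bases downstream of the start site. Capitals mark CCAAT, or ATTGG where it lies on the other strand, and both stretches read 5′ to 3′ on the gene's strand.
Fasn, chr11:120824548-120824677, minus strand: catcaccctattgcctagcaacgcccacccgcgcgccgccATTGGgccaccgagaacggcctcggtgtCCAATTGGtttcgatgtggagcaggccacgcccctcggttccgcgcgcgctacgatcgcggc
Acss2, chr2:155517960-155517989, plus strand: cctacccactATTGGatgcctagagcacgg

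Elovl6, the elongase that turns palmitate into stearate, fell far more than the synthase. It had 51.3, 51.0 and 47.0 CPM without doxycycline and 15.9, 14.2 and 16.1 CPM with it, so the highest induced library was far below the lowest uninduced one. The log2 fold change was -1.69 ± 0.07 (SE, edgeR adjusted p = 4.7e-17), and only 3.59% of tested genes had a lower one.

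**Figure D2:**
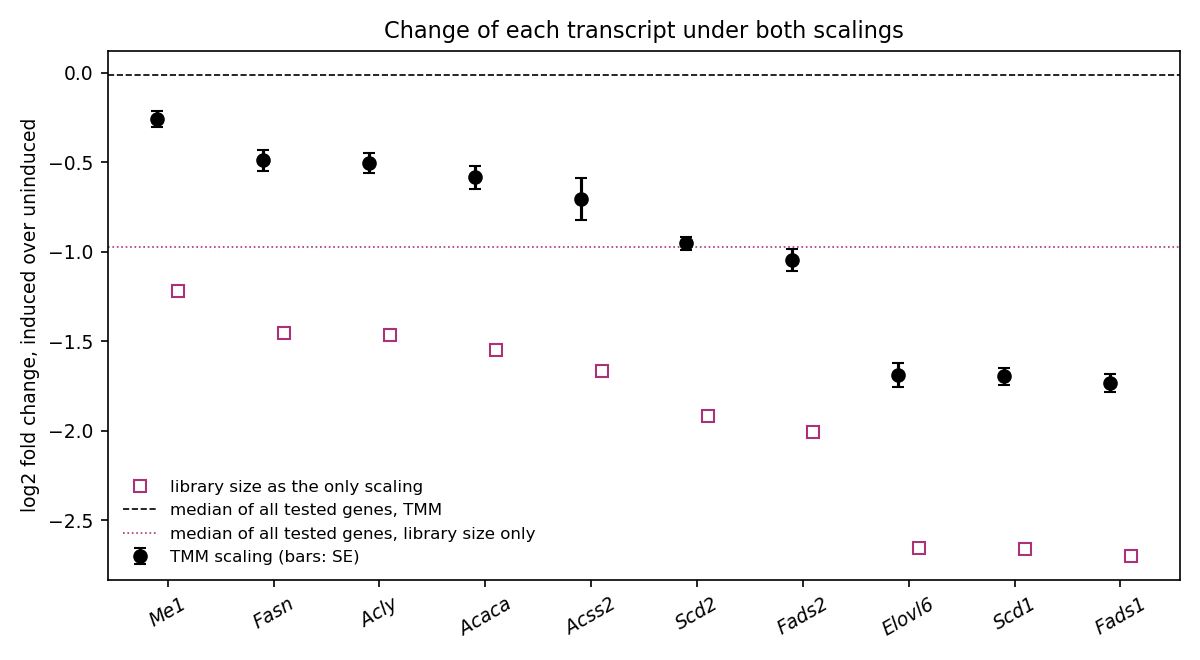
Log2 fold change of each transcript, induced over uninduced, with TMM scaling (filled circles, bars are the SE) and when scaled by library size alone (open squares). Dashed and dotted lines are the medians of all tested genes under each scaling, at -0.01 and -0.97. Every gene lies below the median of its own scaling, with Me1 nearest to it and Elovl6, Scd1 and Fads1 furthest.

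The stearoyl-CoA desaturases Scd1 and Scd2, which insert the double bond of oleate and palmitoleate, lie 87.6 kb apart on chromosome 19. Scd2 was the most counted gene of the set at 1437, 1414 and 1390.4 CPM without doxycycline and 724, 726 and 741 CPM with it, for a log2 difference of -0.95 (SE 0.04, adjusted p = 4.8e-17 by edgeR). Scd1 went from 263, 253 and 251 CPM to 76.0, 83.4 and 77.5 CPM, for a log2 difference of -1.70 (SE 0.05, adjusted p = 1.6e-20 by edgeR). The induced libraries of Scd1 thus held 30.9% of its uninduced level, and those of Scd2 51.7%. Within the sum of both genes, Scd1 took 15.5%, 15.2% and 15.3% of the counts in uninduced and 9.50%, 10.3% and 9.47% in induced libraries. This share does not depend on how libraries are scaled, and its fall of 5.57 percentage points separated the groups (exact two-sided permutation test, p = 0.1, the smallest that 3 against 3 libraries allow).

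Another member of the family went the other way. Scd3, a paralog known mainly from skin and its sebaceous glands, had 11.3, 9.12 and 7.93 CPM without doxycycline and 72.0, 66.7 and 65.7 CPM with it, for a log2 difference of 2.84 (SE 0.09, adjusted p = 1.8e-15 by edgeR) and 1.88 when scaled by library size alone. Scd4 was scarce, at 1.27 ± 0.303 and 0.637 ± 0.106 CPM (SD, n = 3). In order along chromosome 19 of GRCm38.p6, Scd3 spans 44203288 to 44244016, Scd2 44293676 to 44306864, Scd4 44333326 to 44346743 and Scd1 44394450 to 44407709. Of the counts of all 4 genes, a grouping chosen after values were seen, Scd3 took 0.562% ± 0.0922 in uninduced and 7.76% ± 0.432 in induced libraries (SD, n = 3). Scd2 kept most of the family's counts in both groups, with 84.1% ± 0.225 and 83.2% ± 0.514. Shared 50-base stretches with Scd1 made up 4.77% of those of Scd3, and those with Scd2 3.89%, so reads over these parts can be assigned to any of them, and their part in the values was not tested.

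**Figure D3:**
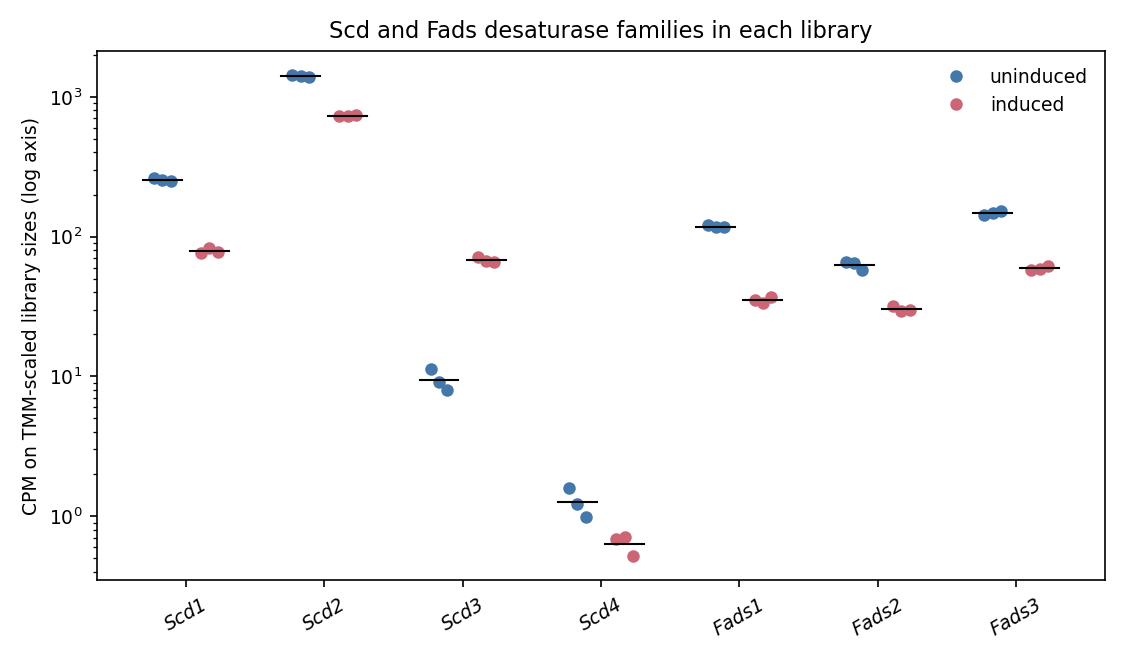
Scd1 to Scd4 and Fads1 to Fads3 in each library, as CPM on TMM-scaled library sizes on a log axis, with dots for libraries and black bars for means of 3. Scd3 is the gene whose induced libraries (65.7 to 72.0 CPM) lie above its uninduced ones (7.93 to 11.3 CPM), while the others lie below theirs.

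The polyunsaturated fatty acid desaturases also fell, Fads1 more than Fads2. Fads2, which acts earlier in the pathway, had 65.5, 64.3 and 57.9 CPM without doxycycline and 32.0, 29.3 and 29.6 CPM with it, for a log2 difference of -1.05 (SE 0.06, adjusted p = 7.7e-14 by edgeR). Fads1 had 120.3, 117 and 117 CPM against 35.4, 33.6 and 37.2 CPM, for a log2 difference of -1.74 (SE 0.05, adjusted p = 8.3e-20 by edgeR). Only 3.27% of tested genes fell further than Fads1. Both lie on chromosome 19, 81.4 kb apart, and they share no 50-base stretch with each other. Of their summed counts Fads1 took 64.7%, 64.5% and 66.9% without doxycycline and 52.5%, 53.5% and 55.7% with it, a separation of 11.5 percentage points between means (exact two-sided permutation test, p = 0.1, the smallest possible). Fads3, on the other side of Fads2 on that chromosome, went from 142, 148 and 154 CPM to 57.4, 58.8 and 61.5 CPM, for a log2 difference of -1.32 (SE 0.05, adjusted p = 5.8e-18 by edgeR).

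Ratios between genes of the same library do not depend on how libraries are scaled. Of the 45 pairs among the 10 genes, 34 had ratios that did not overlap between groups, each with an exact permutation p of 0.1, the smallest possible (0.132 after Benjamini-Hochberg adjustment over the 45 pairs). Over all pairs of the 12739 tested genes with a count in every library, 81.5% had ratios that did not overlap, so the count of 34 says nothing particular about the set. The ratios among Scd1, Elovl6 and Fads1 overlapped between groups. The log2 ratio of Scd1 to Elovl6 was 2.36 ± 0.05 in uninduced and 2.36 ± 0.17 in induced libraries, and that of Scd1 to Fads1 was 1.12 ± 0.01 and 1.16 ± 0.14 (SD, n = 3). Fasn, Acly and Acaca likewise kept ratios that overlapped between groups, with Fasn to Acly at 0.78 ± 0.03 and 0.79 ± 0.10 (SD, n = 3). Across these trios, which were put together after values were seen, all 9 ratios were separate and shifted by 1.12 to 1.25 on the log2 scale. Scd2 and Fads2 lay between them, with a log2 ratio to each other of 4.50 ± 0.07 and 4.59 ± 0.08 (SD, n = 3). The ratios of Acss2, the least counted gene, to Fasn, Acly, Acaca and Scd2 overlapped as well, so it belongs to no 1 group. The ratios of Me1 to all 9 others were separate. The widest shift was that of Fads1 to Me1, from 0.28 ± 0.06 to -1.20 ± 0.04 (SD, n = 3). Under all 16 alternatives the 3 largest falls belonged to Elovl6, Fads1 and Scd1.

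**Figure D4:**
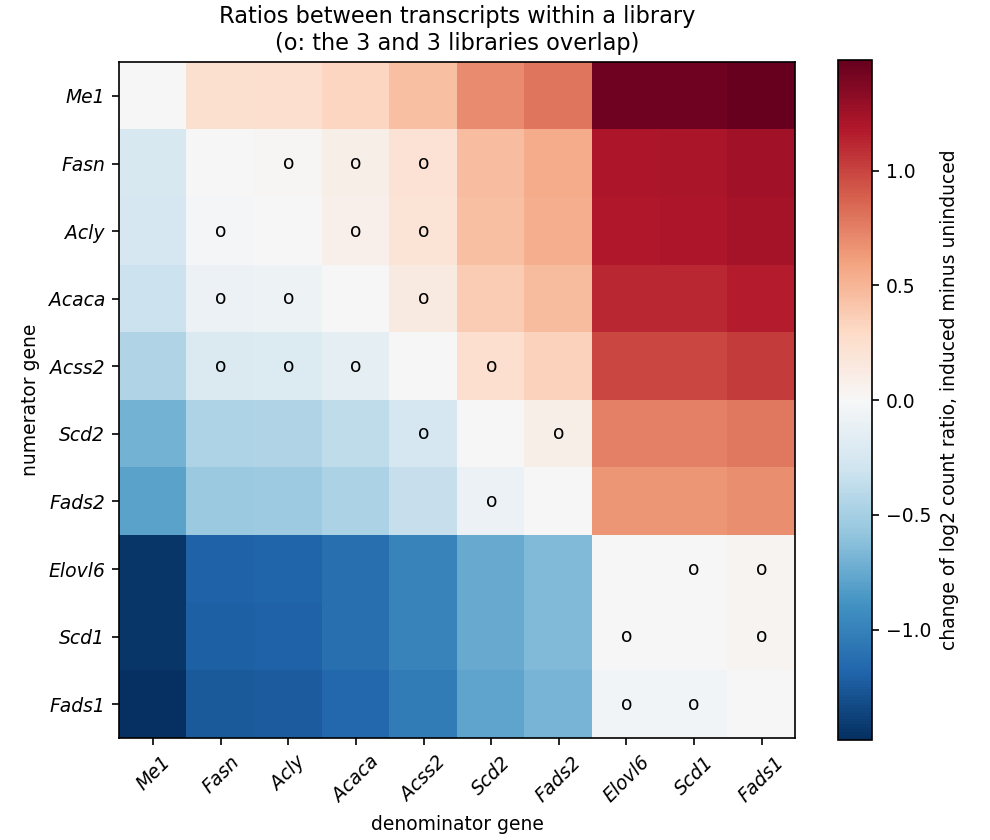
Change of the log2 count ratio between each pair of the 10 genes, induced minus uninduced, with the numerator gene in rows and the denominator gene in columns. The letter o marks the 11 pairs whose libraries overlap between groups. Pale blocks of like change join Fasn, Acly, Acaca and Acss2, next to Me1, near one corner and Elovl6, Scd1 and Fads1 in the opposite one.

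Per kb of merged exon (GENCODE M21), the level of Scd2 was the highest in both groups, at 259 ± 4.24 CPM per kb in uninduced and 134 ± 1.73 CPM per kb in induced libraries (SD, n = 3). In uninduced cells Scd1 came next at 52.3 ± 1.31, followed by Acly at 35.8 ± 2.71, Fasn at 29.5 ± 1.78, Me1 at 25.2 ± 0.650 and Fads1 at 24.5 ± 0.415 CPM per kb. Libraries of Me1 and Fads1 overlapped, and other neighbours in this order did not. Fads2 had 19.0 ± 1.24, Elovl6 7.73 ± 0.373, Acaca 5.22 ± 0.563 and Acss2 1.06 ± 0.0785 CPM per kb. In induced cells Scd1 had moved from the second to the fifth place at 16.1 ± 0.800 CPM per kb, below Acly at 25.2 ± 1.60, Me1 at 21.1 ± 0.549 and Fasn at 21.0 ± 1.86. Fads1 at 7.35 ± 0.375 stood below Fads2 at 9.20 ± 0.458 CPM per kb, and Elovl6 at 2.39 ± 0.163 below Acaca at 3.49 ± 0.140, with Acss2 again the lowest at 0.653 ± 0.112. Among induced libraries Me1 and Fasn were the neighbours in this order that overlapped. These levels depend on the exon models, since the annotation used for counting is not given in the sources used here.

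Both SREBP genes fell with the enzymes. Srebf1, whose product drives fatty acid synthesis genes, had 90.0, 87.9 and 83.8 CPM without doxycycline and 41.2, 39.2 and 40.3 CPM with it, for a log2 difference of -1.11 (SE 0.05, adjusted p = 6.6e-16 by edgeR). Srebf2, which mainly serves cholesterol synthesis, was at -0.88 ± 0.04, and Insig1, which retains the SREBP complex in the endoplasmic reticulum and is itself a SREBP target, was at -1.10 ± 0.05. Scap, the SREBP escort protein, was at -0.09 ± 0.05 (edgeR adjusted p = 0.11) but passed the test at -0.24 with upper-quartile scaling. Mbtps2, a membrane protease that releases SREBP, fell by 1.55 and Trib1, a pseudokinase, by 1.64 on the log2 scale. Fbxw7, a ubiquitin ligase subunit that targets nuclear SREBP for destruction, rose by 1.94 ± 0.06, and the NF-Y subunit Nfya rose by 1.13 ± 0.05 and by 0.17 when scaled by library size alone. The other NF-Y subunit genes, named after their values were seen, did not rise. Nfyc was lower at -0.22 ± 0.05, and Nfyb was not called with TMM scaling at -0.07 ± 0.08 (SE, edgeR adjusted p = 0.41). The glucose-sensing factor gene Mlxipl had 0, 1 and 0 counts without doxycycline and 6, 9 and 9 counts with it, and Thrsp had 2 counts in all, too few to test. Of 18 tested genes in the list of SREBP and ChREBP control, 11 were lower and 5 higher, with a median log2 fold change of -0.24. When scaled by library size alone 15 were lower and 3 higher. For comparison with this and later lists, 41.2% of all tested genes were lower and 41.3% higher. With library-size scaling 76.7% of them were lower. The other 3 higher genes of this list, named after their values were seen, were the liver X receptor genes Nr1h3 and Nr1h2 and the E-box factor gene Usf1, of which Nr1h2 and Usf1 turned to lower under that scaling. Usf2, the related E-box factor gene, was lower at -0.47 ± 0.06 (SE).

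The list of acetyl-CoA, malonyl-CoA and NADPH supply also held 4 subunit genes of AMPK, a kinase that inhibits acetyl-CoA carboxylase and supplies neither. Of its 14 tested genes 5 were lower (Idh1, Me2, Mthfd1, Prkab1 and Prkag1), 4 were higher (G6pdx, Pgd, Prkaa1 and Prkaa2) and the median log2 fold change was -0.16. Without the AMPK genes, a split made after values were seen, 3 of 10 were lower and 2 higher, and 10 of 10 were lower when scaled by library size alone. G6pdx and Pgd, the NADPH-yielding enzymes of the pentose phosphate pathway, were at 0.58 ± 0.04 and 0.34 ± 0.04 (SE), but when scaled by library size alone they and Prkaa1 were lower, and the split of the whole list became 13 lower and 1 higher. The AMPK subunit genes went both ways, with 3 of all 7 higher and 4 lower, or 1 higher and 6 lower when scaled by library size alone. The catalytic subunit gene Prkaa2 rose by 1.27 ± 0.07 on the log2 scale, while Prkab2, Prkag3 and Prkag2, which the list had left out, were at -1.34 ± 0.08, -1.34 ± 0.22 and 0.27 ± 0.10 (SE). Slc25a1, the carrier that exports citrate for Acly, was at 0.15 ± 0.07 (SE, edgeR adjusted p = 0.054), and it passed without uninduced replicate 2 (edgeR adjusted p = 0.0217) or induced replicate 2 (edgeR adjusted p = 0.0206). Apart from Prkaa2 these genes were named after their values were seen.

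The other elongation enzymes went both ways, with 4 of 11 tested lower and 3 higher and a median log2 fold change of -0.10. Tecr, the reductase that ends each elongation cycle, fell by 1.26 and the dehydratase Hacd1 by 1.17 on the log2 scale, and Hacd4 and Elovl1 were the other lower genes. Hsd17b12, Hacd2 and Elovl4 were higher, and all 3 were lower when scaled by library size alone, where 11 of 11 were lower. Among 9 tested desaturases and electron carriers outside the set, 5 were lower and 2 higher, with a median of -0.59, or 8 lower and 1 higher when scaled by library size alone. Cyb5b, a membrane cytochrome b5, fell from 164 ± 3.46 to 55.9 ± 1.21 CPM (SD, n = 3), for a log2 difference of -1.56 (SE 0.04). Besides Fads3 and Cyb5b the lower genes were Cyb5a, the cytochrome that hands electrons to desaturases, Cyb5r1 and Scd4. The higher ones were Scd3 and Degs1, which was at 0.20 ± 0.04, at 0.05 with upper-quartile scaling (edgeR adjusted p = 0.294) and lower when scaled by library size alone.

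**Figure D5:**
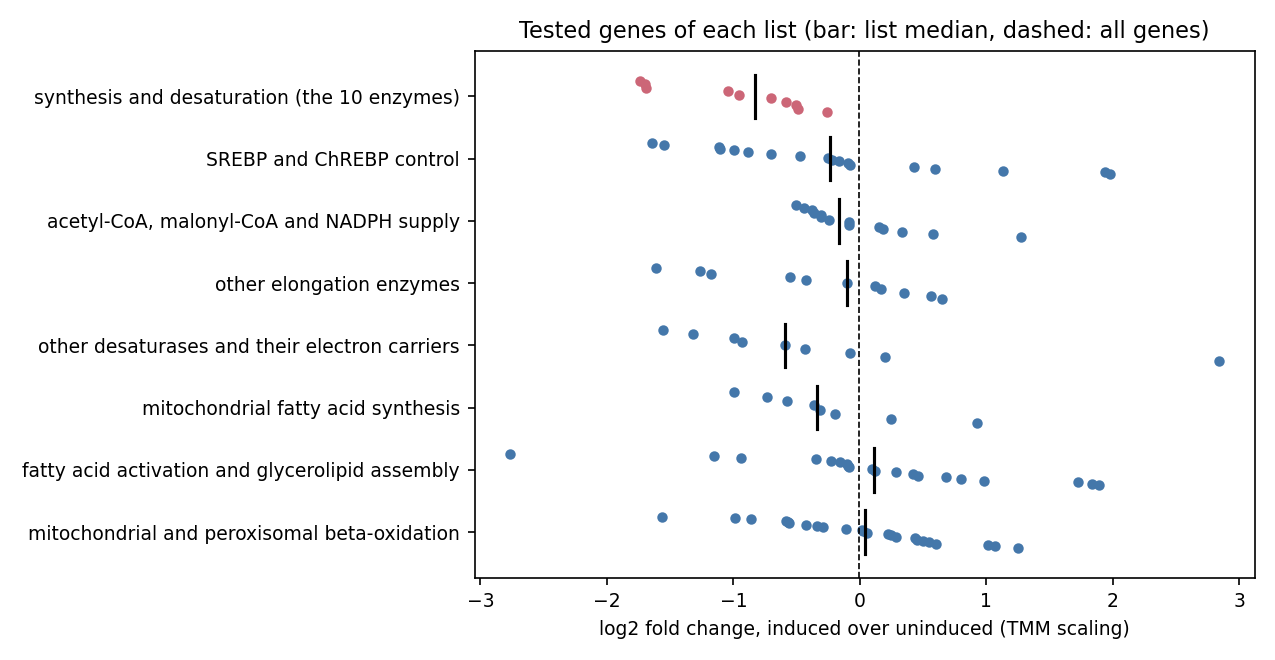
Log2 fold change, induced over uninduced with TMM scaling, of the tested genes in the set and in 7 related lists, with each dot a gene, the bar the list's median and the dashed line the median of all tested genes. The 10 enzymes lie entirely on the lower side (median -0.83), whereas each other list has genes on both sides.

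Markers of the labelled cells were present. Myod1, Cdh15, Myog, Des and Itga7 were counted at 172 CPM or more on average in uninduced libraries, while the satellite cell gene Pax7 and Myf6 averaged 0.0318 and 0.0932 CPM there. Of 8 tested myoblast markers 6 were lower, including Myod1 at -2.26 ± 0.05, Cdh15 at -2.28 ± 0.05, Myog at -1.38 ± 0.05 and Myf5 at -1.23 ± 0.10 (log2 fold change, SE). Chrna1 was at -0.03 ± 0.04 (edgeR adjusted p = 0.48), but at -0.18 and called lower with upper-quartile scaling (edgeR adjusted p = 0.00034). The summed myoblast markers ranged from 2299 to 2324 CPM in uninduced and from 1407 to 1449 CPM in induced libraries, so they fell beside the lipogenic enzymes, and their part in the result was not tested. Adipocytes and hepatocytes express these enzymes strongly. Of 12 adipocyte markers 5 were tested, 2 of them higher (Cebpa and Fabp4), 2 lower (Lpl and Pparg) and Slc2a4 not called at -0.29 ± 0.14. Pparg was not called without uninduced replicate 3 (edgeR adjusted p = 0.0584). Slc2a4 was called lower without uninduced replicate 1 (edgeR adjusted p = 0.0237), with upper-quartile scaling (edgeR adjusted p = 0.0059) and with no filter on low counts (edgeR adjusted p = 0.021). The list's sum went from 104 to 111 CPM up to 209.8 to 211 CPM. Most of the induced sum was Cebpa, which rose from 47.1 ± 1.32 to 159.9 ± 1.75 CPM (SD, n = 3). Lep had no count in any library, and Adipoq, Cfd, Cidec, Plin1 and Retn had none in uninduced and at most 0.313 CPM on average in induced libraries. None of 9 hepatocyte markers in the table had enough counts to be tested, and Ttr and Fgb had no count. Their sum ranged from 0.0983 to 0.210 CPM in uninduced and from 1.08 to 1.55 CPM in induced libraries. With no filter on low counts 3 of 7 hepatocyte markers were called higher and 0 lower, and 4 of 11 adipocyte markers higher and 3 lower. In that setting 6165 of all 18589 tested genes were higher and 5866 lower. No hepatocyte marker had more than 13 counts in a library.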

How the data were processed

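Polyadenylated RNA was made into libraries with a TruSeq kit, per the labels' protocols. The deposited table holds raw counts per Entrez gene. The submitters' processing notes name CASAVA, the aligners TopHat2 2.0.12 and Bowtie2 2.2.3 and the build mm10. Which counter, annotation and strand setting made the table is not given in the sources used here. The 13 rows that have an Entrez ID and no symbol were kept.

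Counts were tested in R 4.3.3 with edgeR 4.0.16 (filterByExpr, TMM, glmQLFit with robust=TRUE, two-sided glmQLFTest, with group as the sole covariate) and Benjamini-Hochberg adjustment over 12969 genes at a threshold of 0.05. Each SE was obtained from the size of the log2 change over the root of its F statistic. Alternatives were DESeq2 1.42.0, limma-voom (limma 3.58.1), other scalings and filters, a replicate block, left-out libraries, an adjusted p of 0.01 and glmTreat. Libraries of a group differed by more than counting noise (chi-square 2.40 to 6.77 times its degrees of freedom). Separate cultures are stated in the series text.

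Members, lists and tests were chosen with earlier results of these data known. Outside the 10 enzymes, up to 4 called genes per list were named, with an absolute log2 fold change of 1 or more and a mean of 5 CPM or more, plus known regulators. Older symbols in the lists that match no row were not used. Exon lengths and shared 50-base stretches came from GENCODE M21, and promoter windows from RefSeq (GRCm38.p6). Some genes of the lists that the naming rule or the counts include are not reported here by name.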

Additional observations from a re-analysis of the deposited data

How the results depend on the processing

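All 10 enzymes were called lower with DESeq2, limma-voom, scaling by RLE, by upper quartile or by library size alone, both other filters, robust=FALSE, the removal of the 100 most counted induced genes, an adjusted p of 0.01 and each library left out (10 in every case). With glmTreat against 1.5-fold, which asks for a larger change, 5 members were called, all lower, and genes called over the whole table numbered 5549 in place of 10698. Without each library in turn the Scd1 share shifted by -5.84 to -5.42 and the Fads1 share by -12.4 to -10.7 percentage points. Labels give both groups replicates 1 to 3 without saying that a number marks a shared dish or day, and deviations of same-numbered libraries correlated at only 0.06, 0.02 and 0.03. Each library correlated best with its own number, but induced replicate 2 stood at 0.017 with its own and 0.009 with uninduced replicate 3. Correlations this small do not settle whether libraries were paired. With the replicate block 10813 genes were called, again with all 10 members lower, and the shifts of -5.57 and -11.5 points in the Scd1 and Fads1 shares had an exact sign-flip p of 0.25, the smallest 3 pairs allow. Slc25a1, Scap, Slc2a4 and Chrna1 were not called but passed in some settings: Slc25a1 with the replicate block (edgeR adjusted p = 0.0381), RLE scaling or 1 of 2 libraries left out, Slc2a4 without uninduced replicate 1, and Scap, Slc2a4 and Chrna1 with upper-quartile or library-size scaling or no filter on low counts. All 18 tested genes of SREBP and ChREBP control, Nfyb among them, were called with upper-quartile or library-size scaling. Prkaa1 and Degs1 lost their calls with upper-quartile scaling. When scaled by library size alone 12 of the named genes in the lists changed sign, through the shift of all genes: Nr1h2 to -0.54, Usf1 -0.37, Slc25a1 -0.81, G6pdx -0.39, Pgd -0.63, Prkaa1 -0.78, Elovl4 -0.61, Hsd17b12 -0.40, Hacd2 -0.32, Degs1 -0.77, Cbr4 -0.72 and Lipt1 -0.041. Prkag2, which the lists had left out, changed sign as well, to -0.70. With library-size scaling 9949 genes were lower and 1977 higher, in place of 5347 and 5351. Calls for Gpam, Lias, Lipt2 and Pparg were lost without at least 1 library, and counts of whole lists moved too. With 1 library left out, fatty acid activation and glycerolipid assembly had 8 or 9 genes higher in place of 10, and 4 to 7 lower in place of 5. Beta-oxidation then had 9 or 10 higher and 7 or 8 lower, and SREBP and ChREBP control 10 or 11 lower. Reads shared with pseudogenes or overlapping genes limit Acaca, Me1 and Acss2, and 3 libraries a group limit the precision.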

Other observations

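Genes for steps that use fatty acids went both ways, as did all tested genes, at 41.3% higher and 41.2% lower. When scaled by library size alone 76.7% of all tested genes were lower. In the list of fatty acid activation and glycerolipid assembly 10 of 20 tested genes were higher and 5 lower, with a median log2 fold change of 0.11, against 3 higher and 15 lower when scaled by library size alone and 8 higher and 9 lower with upper-quartile scaling. Acsl1, a long-chain acyl-CoA synthetase, rose from 9.40 ± 0.889 to 34.8 ± 2.47 CPM (SD, n = 3) and Dgat2, which makes triglyceride, from 5.78 ± 0.788 to 20.6 ± 1.52 CPM. The phosphatidate phosphatase gene Lpin3 fell by 2.76 and Acsl5 by 1.15 on the log2 scale. The other lower genes, named after their values were seen, were Agpat3, Lpcat3 and Gpam. Gpam was not called with DESeq2 (adjusted p = 0.0614) or without uninduced replicate 1 (edgeR adjusted p = 0.225), induced replicate 2 (edgeR adjusted p = 0.121) or induced replicate 3 (edgeR adjusted p = 0.103).

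In beta-oxidation, the route that breaks fatty acids down, 10 of 24 tested genes were higher and 8 lower, with a median of 0.04, against 1 higher and 21 lower when scaled by library size alone. Over all tested genes 41.3% were higher and 41.2% lower, and 76.7% were lower under library-size scaling. Hadha, a subunit of the mitochondrial trifunctional protein, rose from 109 ± 2.95 to 228 ± 3.68 CPM (SD, n = 3), for a log2 difference of 1.07 (SE 0.04) that was 0.11 under that scaling. Among the lower genes, Acadm was at -0.98 ± 0.06 and Acaa2 at -0.86 ± 0.06 (SE), both named after their values were seen. The separate mitochondrial pathway of fatty acid synthesis, which feeds lipoic acid, had 6 of 8 genes lower and Lipt1 higher, with a median of -0.34. Its lower genes were Oxsm, Lipt2, Mcat, Ndufab1, Mecr and Lias, all named after their values were seen, and Cbr4 was at 0.25 ± 0.14 (SE, edgeR adjusted p = 0.11). When scaled by library size alone 7 were lower and Lipt1 was at -0.041. Lias and Lipt2 lost their calls without uninduced replicate 1 (edgeR adjusted p = 0.0668 and 0.0771), as did Lias without induced replicate 1 (edgeR adjusted p = 0.179) or with DESeq2 (adjusted p = 0.0875) and Lipt2 without induced replicate 3 (edgeR adjusted p = 0.0749).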
